A study of Homo sapiens with 12 samples.

Results

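The genes described here are 4 serine proteases of the epithelial cell surface, TMPRSS2, HPN, ST14 and PRSS8, and the Kunitz-type inhibitors that hold such enzymes in check, SPINT1 and SPINT2. They were chosen by name, as probes whose platform gene symbol equals one of the 6 symbols, which gave 6 of 20044 genes and 9 of 47317 probes. Their RNA was read on 12 Illumina bead arrays in LNCaP, an androgen-responsive human line derived from a lymph node metastasis of prostate cancer. Of the arrays, 6 came from cells transfected with pcDNA3.1_FoxA1, which the labels call FOXA1 overexpression, and 6 from cells transfected with pcDNA3.1_GFP. FOXA1 is a forkhead pioneer factor that opens chromatin for the androgen receptor in the prostate. All cells were kept in RPMI with serum, received plasmid at the same stated concentration (3 µM) with Lipofectamine, and were collected after 48 h. Both groups are transient transfections of 1 cell line, so the arrays average transfected and untransfected cells, and the share of each is not given. The labels number the replicates 1 to 6 in each group and do not say whether they were separate cultures, so the p-values here rest on spread among arrays that could be technical.

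Trypsin-like proteases anchored in the plasma membrane cut and thereby activate growth factors, receptors and other proteases at the epithelial surface. TMPRSS2, hepsin (HPN) and matriptase (ST14) are type II transmembrane enzymes made as inactive precursors, while prostasin (PRSS8) is held by a lipid anchor. The inhibitors HAI-1 (SPINT1) and HAI-2 (SPINT2) are themselves transmembrane proteins that block matriptase, hepsin and prostasin. In the prostate, TMPRSS2 is a classical androgen-induced gene whose regulatory region is often fused to ETS genes in cancer, and hepsin is known for its increase in prostate tumours.

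Promoters are shown because the transfected factor binds DNA by sequence. RefSeq promoter windows on GRCh38.p14, from 250 bases before to 50 bases after a start, matched 2 of the 6 members, HPN and SPINT1. The HPN window lies at chr19:35041471-35041770 on the plus strand. The SPINT1 window of the more upstream of its 2 starts lies at chr15:40843798-40844097, also on the plus strand. Capitals mark GC boxes (GGGCGG on either strand).
HPN: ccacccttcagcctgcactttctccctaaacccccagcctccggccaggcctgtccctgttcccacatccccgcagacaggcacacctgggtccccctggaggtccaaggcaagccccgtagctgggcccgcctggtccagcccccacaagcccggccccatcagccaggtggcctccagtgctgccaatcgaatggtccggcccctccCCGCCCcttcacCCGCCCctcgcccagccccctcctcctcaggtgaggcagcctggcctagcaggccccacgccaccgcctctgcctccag
SPINT1: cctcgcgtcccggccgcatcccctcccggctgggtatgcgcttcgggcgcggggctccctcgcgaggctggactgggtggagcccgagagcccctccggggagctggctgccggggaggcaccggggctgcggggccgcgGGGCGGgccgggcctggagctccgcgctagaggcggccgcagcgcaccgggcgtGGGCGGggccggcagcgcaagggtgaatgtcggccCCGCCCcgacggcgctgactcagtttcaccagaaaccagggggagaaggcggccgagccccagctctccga
The HPN window has a GC content of 71.0% and the SPINT1 window one of 77.7%, against a median of 58.7% over 35116 windows of this length. The HPN window holds 2 GC boxes and this SPINT1 window 3, and 15786 of the 35116 windows hold at least 1. Forkhead spellings were searched on both strands as TGTTTAC, which 3.42% of all windows hold, as TGTTTGC, which 3.89% hold, and as TATTTAC, which 2.67% hold. None of these spellings occurs in the HPN window or in either SPINT1 window, and 9.57% of all windows hold 1 or more of them. The half-site AGAACA, the core bound by the androgen receptor, occurs once, on the minus strand of the window of the second SPINT1 start at chr15:40844227-40844526, and in 14.8% of all windows. These matches describe letters in short windows only. FOXA1 is known to act largely at distal enhancers, which these windows do not include.

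Levels are given in log2 intensity as normalised by the authors, and a level is compared here only with the same probe on other arrays, or with a background estimate of 7.54. That estimate is the 95th percentile of 784 further probes of the non-normalized table, whose role is not stated. By this measure 8 of the 9 probes had a mean above background, and on each of these 8 all 12 arrays lay above it. The exception was the third HPN probe, which is annotated to another transcript than the other HPN probes and lay at 6.71 on average with 0 of 12 arrays above background. It ranged from 6.53 to 6.82 in FoxA1 arrays and from 6.47 to 6.94 in GFP arrays. Of 7 luminal markers 6 were measured and all 6 stood above background, KLK2, KLK3, FOLH1, HOXB13, KRT8 and KRT18, with list means between 10.31 and 10.59 in FoxA1 arrays and between 10.22 and 10.73 in GFP arrays. The basal markers KRT5, KRT14 and KRT15 stood below it, with list means between 6.87 and 7.01 in FoxA1 arrays and between 6.83 and 7.05 in GFP arrays. Of the stromal and leukocyte markers, DES, COL1A2, PTPRC and CD3E lay below background, COL1A1 (7.54) and MS4A1 (7.57) lay close to it, and ACTA2 and CD68 lay above it on all 12 arrays.

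FOXA1 itself ranged from 13.29 to 13.62 in FoxA1 arrays, with a median of 13.41, and from 13.01 to 13.48 in GFP arrays, with a median of 13.35. The groups overlapped, and the difference was 0.13, with a limma 95% interval of -0.06 to 0.31 and an adjusted p of 1.00. It was 0.07 without GFP 2 and 0.04 without FoxA1 3, FoxA1 4 and GFP 3 together. The groups compared are therefore cells labelled by plasmid, and FOXA1 RNA did not differ between them by more than the spread between arrays. It is not known here whether the probe reads the plasmid's transcript.

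Between the groups, 0 of 9 probes of the 6 genes were called higher or lower. The intervals given below show what size of change remains possible. In the fit over all probes 0 of 47317 passed a limma adjusted p of 0.05 (0%), and at an unadjusted p under 0.05 there were 1502 probes, or 3.17%, of which 0 belong to these genes. With 1 probe per gene 0 of 20044 genes passed (0%), and 508, or 2.53%, lay under an unadjusted p of 0.05. The FoxA1 and GFP arrays overlapped for all 9 probes, while they did not overlap for 57 of all probes, or 0.12%, and for 20 of all genes, or 0.0998%. With 6 arrays against 6, the exact permutation test could reach a p of 0.00216.

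TMPRSS2, the androgen-induced protease, had 12.51 as its lowest, 12.93 as its median and 13.82 as its highest level in FoxA1 arrays. In GFP arrays the lowest level was 12.44, the median 12.82 and the highest 13.55. Both groups thus held arrays far apart from one another, with FoxA1 3 (13.74), FoxA1 4 (13.82) and GFP 3 (13.55) above the range of 12.44 to 13.10 that covered the other 9 arrays. TMPRSS2 averaged 13.10 ± 0.56 in FoxA1 arrays and 12.89 ± 0.39 in GFP arrays (SD, n = 6 each). The difference was 0.20 (SE 0.22), and its 95% interval ran from -0.26 to 0.66, or from 0.837-fold to 1.58-fold (limma adjusted p = 1.00, exact permutation p = 0.472). Of the arrays far above the rest, FoxA1 3 and FoxA1 4 belong to one group and GFP 3 to the other, and without the 3 of them the TMPRSS2 difference was -0.00816. As these are its highest arrays and more of them are FoxA1 arrays, leaving them out lowers the TMPRSS2 difference by the choice of arrays. With single arrays left out it ran from 0.06 without FoxA1 4 to 0.33 without GFP 3.

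Hepsin (HPN), which activates the precursor of hepatocyte growth factor, was read above background by 2 probes. The brighter one ranged from 10.44 to 11.37 in FoxA1 arrays, with a median of 10.58, and from 10.30 to 11.64 in GFP arrays, with a median of 10.71. Again FoxA1 3, FoxA1 4 and GFP 3 were the high arrays, at 11.33, 11.37 and 11.64, and the other 9 did not exceed 10.76. The second probe repeated this with 10.83, 10.78 and 11.28 against at most 10.22 on the other 9 arrays. The means of the brighter probe were 10.79 ± 0.44 in FoxA1 arrays and 10.78 ± 0.45 in GFP arrays (SD, n = 6 each), a difference of 0.01 with a 95% interval from -0.41 to 0.44 (limma adjusted p = 1.00, exact permutation p = 0.972). The second probe gave -0.03 with an interval from -0.48 to 0.41, so the sign of the small difference depended on the probe. Without GFP 3 the brighter probe differed by 0.18, and without FoxA1 4 by -0.11.

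Matriptase (ST14), which activates prostasin, the urokinase precursor and the hepatocyte growth factor precursor, ranged from 8.77 to 9.73 in FoxA1 arrays, with a median of 9.25. In GFP arrays it ranged from 8.84 to 9.66, with a median of 9.02. FoxA1 3, FoxA1 4 and GFP 3 were highest here too, at 9.73, 9.72 and 9.66, but GFP 6 followed closely at 9.59, and in the non-normalized and the median-centred values only 1 of the 3 stood above the other 9 arrays. The group means were 9.26 ± 0.43 in FoxA1 arrays and 9.18 ± 0.35 in GFP arrays (SD, n = 6 each). Their difference of 0.08 had a 95% interval from -0.30 to 0.46 (limma adjusted p = 1.00, exact permutation p = 0.753). It turned negative without FoxA1 3 (-0.01) or FoxA1 4 (-0.01) and was highest, at 0.18, without FoxA1 1.

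Prostasin (PRSS8), known as an activator of the epithelial sodium channel, had another order of arrays. Its level ranged from 10.82 to 11.37 in FoxA1 arrays, with a median of 11.19, and from 10.93 to 11.48 in GFP arrays, also with a median of 11.19. FoxA1 3 and FoxA1 4, high for the 3 other proteases, were in the lower part for PRSS8 at 10.94 and 11.08. GFP 3 was highest at 11.48, level with GFP 5 at 11.47. This order depended on the normalization, as FoxA1 3 (11.35) lay above GFP 3 (11.11) in the non-normalized values. The means were 11.14 ± 0.23 in FoxA1 arrays and 11.23 ± 0.21 in GFP arrays (SD, n = 6 each). The difference of -0.09 had a 95% interval from -0.33 to 0.15 (limma adjusted p = 1.00, exact permutation p = 0.485). It ran from -0.15 without GFP 1 to -0.03 without FoxA1 2, and it was 0.02 without FoxA1 3, FoxA1 4 and GFP 3 together.

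**Figure D1:**
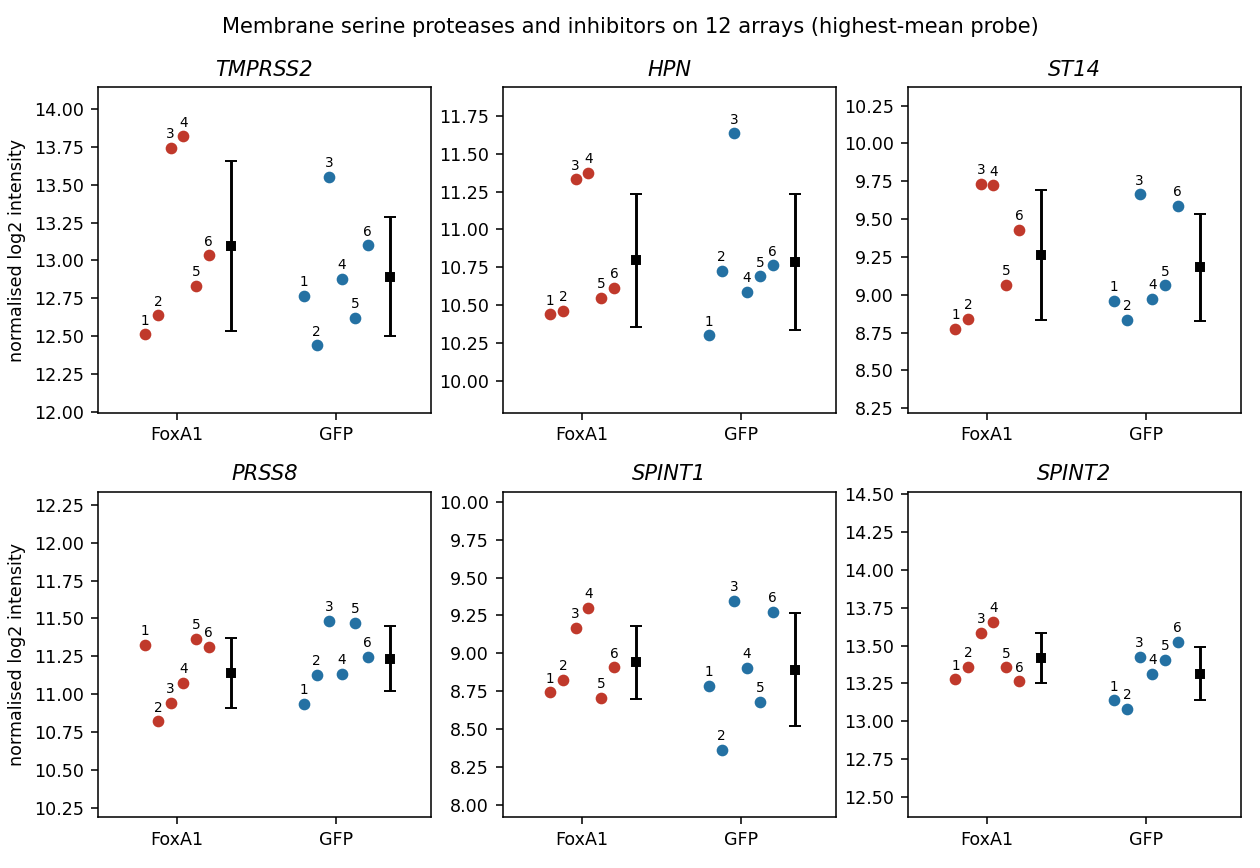
Normalised log2 intensity of the highest-mean probe of each gene (vertical axis) on the 6 FoxA1 arrays (red) and the 6 GFP arrays (blue), numbered by replicate, with the group mean and SD as black squares and bars. Each panel spans the same log2 range. TMPRSS2, HPN and ST14 are highest on FoxA1 3, FoxA1 4 and GFP 3, PRSS8 has another order, and the groups overlap in every panel.

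The inhibitors overlapped between the groups as well. SPINT1, the inhibitor of matriptase, hepsin and the activator of hepatocyte growth factor, was read by 2 probes. The brighter one ranged from 8.71 to 9.30 in FoxA1 arrays, with a median of 8.86, and from 8.36 to 9.35 in GFP arrays, with a median of 8.84. GFP 3 (9.35), FoxA1 4 (9.30), GFP 6 (9.27) and FoxA1 3 (9.17) were the highest arrays and GFP 2 the lowest, so that the 3 arrays did not separate from the rest. The means were 8.94 ± 0.24 in FoxA1 arrays and 8.89 ± 0.37 in GFP arrays (SD, n = 6 each), a difference of 0.05 with a 95% interval from -0.26 to 0.36 (limma adjusted p = 1.00, exact permutation p = 0.820). The dimmer SPINT1 probe, at a mean of 8.05, gave 0.04 with an interval from -0.13 to 0.22. The difference of the brighter probe was -0.06 without GFP 2, -0.02 without FoxA1 4 and 0.14 without GFP 3.

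SPINT2, which inhibits hepsin, matriptase and prostasin, ranged from 13.26 to 13.65 in FoxA1 arrays, with a median of 13.36. In GFP arrays it ranged from 13.08 to 13.52, with the same median of 13.36. FoxA1 4 (13.65) and FoxA1 3 (13.58) were the highest arrays, above every GFP array, and GFP 2 and GFP 1 the lowest. This order depended on the normalization, as FoxA1 4 (13.36) lay below GFP 6 (13.56) in the non-normalized values. In the non-normalized and the median-centred values only 1 of FoxA1 3, FoxA1 4 and GFP 3 stood above the other 9 arrays. The means were 13.42 ± 0.16 in FoxA1 arrays and 13.32 ± 0.17 in GFP arrays (SD, n = 6 each), with a difference of 0.10 (SE 0.09) and a 95% interval of -0.10 to 0.30 (limma adjusted p = 1.00, exact permutation p = 0.325). Without FoxA1 3, FoxA1 4 and GFP 3 the difference was 0.02, and with single arrays left out it ran from 0.05 without FoxA1 4 to 0.14 without GFP 6.

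**Figure D2:**
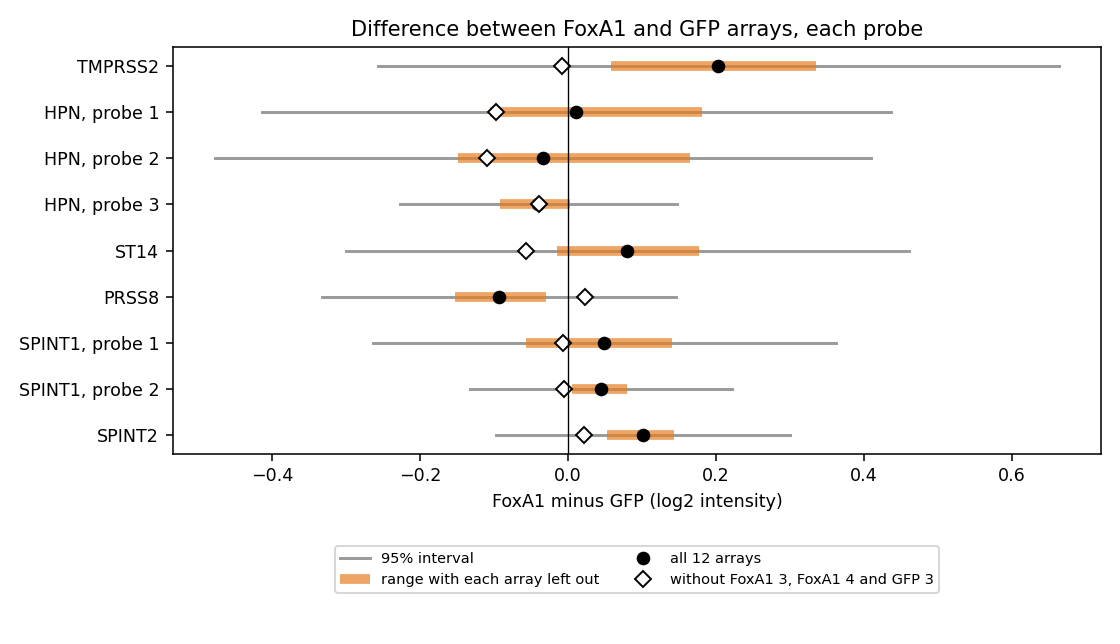
Difference of FoxA1 minus GFP arrays in log2 intensity (horizontal axis) for each probe (vertical axis), with the limma 95% interval as a grey line, the range with each array left out as an orange bar and the value without FoxA1 3, FoxA1 4 and GFP 3 as an open diamond. Every interval includes 0, and for TMPRSS2 the difference of 0.20 over all arrays stands beside -0.00816 without the 3 arrays, which are its highest.

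The spread within groups differed strongly between these genes. The pooled SD within groups was 0.484 for TMPRSS2, 0.443 for HPN and 0.392 for ST14, on the log2 scale, which puts them at percentiles 98.1, 97.2 and 95.2 of 10581 genes above background. SPINT1 had 0.314, PRSS8 0.221 and SPINT2 0.168, at percentiles 88.9, 66.9 and 39.6, and the median gene had 0.187. From the lowest to the highest array TMPRSS2 spanned 2.60-fold, HPN 2.52-fold, SPINT1 1.98-fold, ST14 1.94-fold, PRSS8 1.58-fold and SPINT2 1.49-fold. By this range SPINT1 was thus as wide as ST14, although its pooled SD was smaller.

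The 3 high arrays differed from the others for many genes and not for these genes alone. On the leading component of the deviations from group means over the genes above background, which held 43.2% of their variance, FoxA1 3, FoxA1 4 and GFP 3 had the highest scores of the 12 arrays. The scores were 27.9 for GFP 3, 22.3 for FoxA1 4 and 16.8 for FoxA1 3. GFP 6 followed at 8.55 and FoxA1 6 at -2.74, so GFP 6 lay between the 3 arrays and the rest on this component. All 3 lay above the other 9 arrays for 864 of these genes (8.17%) and below them for 443 (4.19%). Of the 6 genes described here TMPRSS2, HPN and ST14 were among the 864. The median intensity of these arrays before normalization was 7.63 on FoxA1 3, 7.37 on FoxA1 4 and 7.31 on GFP 3, which are the highest, the third lowest and the lowest of the 12. TMPRSS2 and both bright HPN probes had all 3 arrays above the other 9 also in the non-normalized and in the median-centred values. The labels give no slide, scan or culture date, so a batch behind these arrays was not tested.

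**Figure D3:**
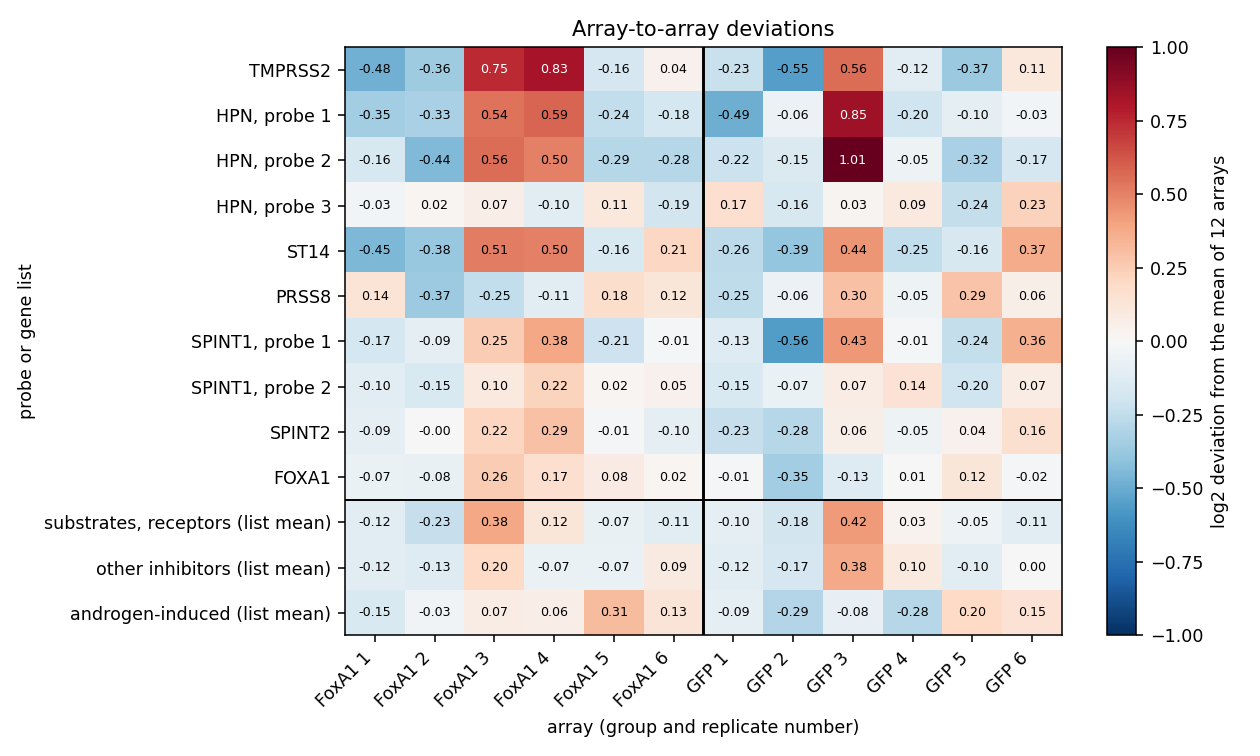
Deviation of each array from the mean of the 12 arrays in log2 intensity (colour and printed value) for each probe of the 6 genes, FOXA1 and the means of 3 gene lists (rows), with FoxA1 arrays left of the black line and GFP arrays right of it. FoxA1 3, FoxA1 4 and GFP 3 are high for TMPRSS2, the bright HPN probes and ST14. The androgen-induced list is highest on FoxA1 5 (0.31), followed by GFP 5 (0.20).

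How the members varied together was described over arrays, with 15 pairs of the 6 genes. Over all 12 arrays 10 of 15 pairs passed an adjusted permutation p of 0.05 by Pearson's r and 9 by Spearman's rho; these are the 10 pairs without PRSS8 and all of them but HPN with SPINT1. TMPRSS2 and HPN fall into separate clusters of arrays, so r is given over the 9 arrays other than FoxA1 3, FoxA1 4 and GFP 3. Over these 9, TMPRSS2 still varied with ST14 (r = 0.879, rho = 0.850, exact permutation p adjusted over 15 pairs 0.0129 for r and 0.0456 for rho) and with SPINT1 (r = 0.835, rho = 0.850, exact permutation p adjusted over 15 pairs 0.0129 and 0.0456). The other 13 pairs did not pass, among them TMPRSS2 with HPN (r = 0.201, rho = 0.217, exact permutation p adjusted over 15 pairs 0.753 for r). Over all 12 arrays TMPRSS2 with HPN had r = 0.855, and the 3 arrays left out are the highest for both genes. ST14 with SPINT1 had r = 0.732 and SPINT1 with SPINT2 r = 0.721 over the 9 arrays, with adjusted exact permutation p-values of 0.105 and 0.125. With the 2 arrays farthest from the TMPRSS2 median, GFP 2 and GFP 6, also left out, r was 0.825 with ST14 and 0.649 with SPINT1 over 7 arrays, not tested. ST14 with SPINT1 had r = 0.204 without FoxA1 6 and GFP 6, and SPINT1 with SPINT2 had r = -0.323 without GFP 2 and GFP 6. The arrays left out are those farthest from the median of the first gene of the pair. Leaving them out narrows the range of that gene, so the lower r does not show what the relation rests on. PRSS8 had r between -0.00397 and 0.499 with the other 5 genes over the 9 arrays, and 0 of its 5 pairs passed. Within the FoxA1 arrays 5 of 15 pairs passed and within the GFP arrays 0. How many pairs of other genes above background would pass was not computed. Many of those genes varied together over these arrays, as the leading component described above held 43.2% of their variance. Whether the 6 genes vary together more than other genes do was therefore not tested. Values of a pair come from the same RNA, hybridisation and scaling, and the number of arrays limits the precision.

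**Figure D4:**
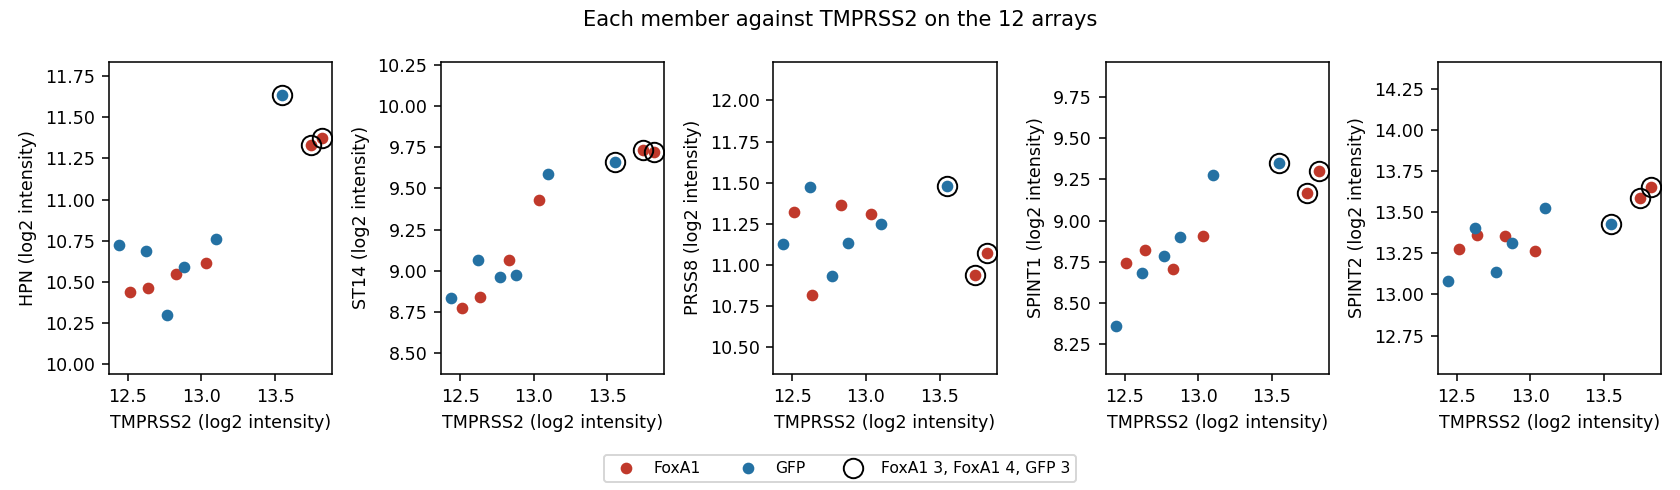
Log2 intensity of each gene (vertical axis) against that of TMPRSS2 (horizontal axis) on the 6 FoxA1 (red) and 6 GFP arrays (blue), with FoxA1 3, FoxA1 4 and GFP 3 ringed. ST14 and SPINT1 climb with TMPRSS2 also among the arrays without a ring, HPN sets the ringed arrays apart, and PRSS8 shows no common order.

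Genes with the most similar pattern over the 12 arrays were looked up for each member among the genes above background, by Pearson's r as a measure of likeness. For TMPRSS2 these were ACLY, the enzyme that makes cytosolic acetyl-CoA (r = 0.978), PHF12 (0.975) and the kinase PIM1 (0.974). For ST14 they were GHDC (0.984), the lysosomal mannosidase MAN2B1 (0.978) and the spindle protein NUMA1 (0.978). HPN was closest to NADSYN1, an enzyme of NAD synthesis (0.977), GLG1 (0.973) and ESYT1 (0.972), and SPINT1 to the mitochondrial citrate carrier SLC25A1 (0.959), the acetyltransferase EP300 (0.955) and MLF2 (0.952). SPINT2 was closest to the lysosomal membrane protein SCARB2 (0.950), the proton pump subunit ATP6V1B2 (0.923) and TMBIM6 (0.923), and PRSS8, with lower likeness, to SAYSD1 (0.898), NSFL1C (0.887) and the histone gene H4C12 (0.878). Over the 9 arrays the r of these genes with their member lay between 0.821 (NADSYN1) and 0.972 (GHDC). These genes were picked for the highest r among 10581 genes over 12 arrays that include these 9. A high r over the 9 thus partly follows from the choice and is no separate evidence of likeness.

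Other genes of cell-surface proteolysis were mostly near background in these cells. Of the other type II transmembrane proteases 13 of 14 were measured and only TMPRSS7 lay above the background estimate, at 7.64, with a difference of 0.07 between the groups. Of the other trypsin-like proteases 3 of 9 measured lay above it, PRSS27 with a difference of -0.11, PRSS55 with 0.10 and TMPRSS12 at a level of 7.70. PRSS55 lay close to background at 7.66, with 10 of 12 arrays above the estimate, and TMPRSS7 had 9 of 12. With each array left out, TMPRSS7 ran from 0.03 without GFP 3 to 0.14 without FoxA1 3, PRSS27 from -0.17 without GFP 6 to -0.01 without FoxA1 6, and PRSS55 from 0.05 without GFP 5 to 0.16 without FoxA1 5. Among other serine protease inhibitors 6 of 16 measured lay above background, 3 higher and 3 lower in FoxA1 arrays, with a median difference of -0.00252. They include the tissue factor pathway inhibitor TFPI at 11.24, the Kunitz-domain amyloid precursor APP with -0.15 and the leukocyte protease inhibitor SLPI with -0.13. SLPI lay close to background at 7.57, with 7 of 12 arrays above the estimate. APP was -0.34 when GFP 5 was omitted and -0.00179 when GFP 3 was, while SLPI was -0.21 when GFP 1 was omitted and -0.09 when FoxA1 2 was. In these lists 0 genes passed the test in either direction; over the genes above background 54.5% were higher in FoxA1 arrays, with a median of 0.01.

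Substrates and receptors of these enzymes gave 4 higher and 4 lower genes of the 8 above background, out of 13 measured, with a median difference of 0.02 (0 passed in either direction). MET, the receptor of hepatocyte growth factor, ranged from 7.96 to 8.30 in FoxA1 arrays, with a median of 8.08, and from 8.02 to 8.49 in GFP arrays, with a median of 8.36. MET differed by -0.20 with a 95% interval from -0.39 to -0.01 and an unadjusted limma p of 0.0419 over genes, which did not pass adjustment over 20044 genes. The groups overlapped, and its exact permutation p was 0.0519. Its ligand HGF was below background, and the related ligand MST1, which has near-identical copies in the genome, differed by 0.17, or by 0.09 without FoxA1 3. SCNN1A, the sodium channel subunit of the channel that prostasin activates, lay at 12.16 and 12.13 on FoxA1 3 and FoxA1 4 and GFP 3 too lay above the 11.96 that the other 9 arrays did not exceed. Its difference between the groups was 0.12, or 0.07 without FoxA1 3. CDCP1, a surface protein cleaved by matriptase, lay at 9.61 on FoxA1 4 and 9.59 on GFP 3. On FoxA1 3, at 9.3961, CDCP1 was level with the highest of the other 9 arrays, at 9.3956. EGFR was highest on the 3 arrays, with 9.40, 8.67 and 9.31 against at most 8.47, and was singled out after its values were seen. EPCAM, an epithelial adhesion protein cleaved by matriptase, lay at 12.36 with no such order.

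The androgen-induced comparison genes, which include the luminal markers KLK2 and KLK3, were set beside TMPRSS2. All 6 were higher in FoxA1 arrays, with differences from 0.04 to 0.21 and a median of 0.15, and 0 of 6 passed the test. Of all genes above background 54.5% were higher. The list was chosen with earlier results of these data known, and its genes are read on the same arrays. The count of 6 is therefore a description and was not tested. FKBP5, a co-chaperone of steroid receptors, differed by 0.21 and the elongation factor ELL2 by 0.20. Single arrays moved these values: omitting GFP 3 gave 0.11 for FKBP5 and 0.03 for ELL2, and omitting GFP 6 gave 0.30 for both. FKBP5 and ELL2 were lowest on GFP 3, at 11.46 and 8.58, where TMPRSS2 was high. PMEPA1, at 11.35, was also below its mean of 11.59 there. KLK3, in contrast, was highest on GFP 3, at 11.02. SLC45A3 (12.97) and KLK2 (10.08) also lay above their means of 12.59 and 9.82 on GFP 3. KLK3, SLC45A3, KLK2 and PMEPA1 were singled out after their values were seen. Of the 6 genes 0 had FoxA1 3, FoxA1 4 and GFP 3 all above the other 9 arrays, where 8.17% of all genes above background did. With so few genes, a count of 0 does not set this list apart from that share. Without these 3 arrays all 6 were still higher in FoxA1 arrays, with a median of 0.12, where 48.4% of all genes above background were higher and TMPRSS2 stood at -0.00816. This contrast was not tested, and since TMPRSS2 and these genes are read on the same arrays it is a description. FoxA1 3, FoxA1 4 and GFP 3 are the highest arrays for TMPRSS2, and more of them are FoxA1 than GFP arrays. Leaving them out therefore lowers the TMPRSS2 difference, so the contrast partly follows from the choice of arrays.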

How the data were processed

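Biotin-labelled RNA of 12 samples was hybridised to Illumina arrays, per the labels. The authors deposited a table named non-normalized and a normalized one, both log2 intensities per probe; the second has near-equal array quantiles and the within-array ranks of the first. The sources used here do not state background correction, software or build. The members and lists were chosen with earlier results of these data known.

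Arrays were grouped by title. The deposited normalized log2 values of 47317 probes (6 more lacked a value on some array) entered limma (version 3.58.1, R 4.3.3; lmFit, then eBayes). The contrast was FoxA1 minus GFP, two-sided, unfiltered, without covariates, adjusted by Benjamini-Hochberg across all probes at a threshold of 0.05. Probes were named by platform annotation (30113 with 1 symbol, 8 with several, 17202 unlisted), with the highest-mean probe for each of 20044 genes. Exact permutation used all 924 arrangements, two-sided. Correlations used 100000 resamples for 12 arrays, exact enumeration for 9 or fewer, Benjamini-Hochberg over 15 pairs. Named list genes were those above background with the smallest p (up to 4) or highest mean (up to 3) per list. The fit was tested on simulated data with residuals shuffled probe by probe. Variation that genes share on an array was therefore not part of that test. Precision is limited by the number of arrays: the median half-width of a gene's 95% interval was 0.197 in log2. Alternatives covered normalization, filter, probe averaging, replicate block, variance moderation and left-out arrays.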

Additional observations from a re-analysis of the deposited data

Results flagged for a closer look

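Both bright probes of HPN had GFP 3 far from the other GFP arrays. On the brighter one the gap between GFP 3 and the next GFP array made up 0.653 of the range of the 6 GFP arrays, and on the second probe 0.796, both above the 95% critical value of Dixon's test for 6 samples. GFP 3 stood at 11.64 on the first probe, against 10.76 for the next GFP array. Of 20 groups examined, over the 9 probes and FOXA1, these 2 were past the value, and chance passes it in about 1 group in 20. The 2 probes read the same gene on the same array and are not independent.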

How the results depend on the processing

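The 6 differences between FoxA1 and GFP arrays were recomputed under 19 alternatives, and 0 of 114 values passed an adjusted p of 0.05 in limma. The count of called probes and of called genes was 0 in every one of these alternatives, with between 403 (without GFP 2) and 751 (without GFP 6) genes at an unadjusted p under 0.05 when single arrays were left out, and 203 with the filter on dim probes. The sign turned in 16 of the 114 values. Without FoxA1 3, FoxA1 4 and GFP 3 together, TMPRSS2 gave -0.00816, HPN -0.0977, ST14 -0.0574, PRSS8 0.0221, SPINT1 -0.00646, the dimmer SPINT1 probe -0.00573 and APP 0.0274, and the medians of other inhibitors and of substrates and receptors gave 0.0211 and -0.0362; this alternative for the lists and the correlations was chosen after seeing the data, and the cause was not tested. With a mean over probes HPN gave -0.0210, and with median centring the second HPN probe gave 0.0222. With each array left out, HPN ran from -0.105 to 0.181, its second probe from -0.149 to 0.164, its dimmest probe from -0.0924 to 0.00197, ST14 from -0.0145 to 0.177, SPINT1 from -0.0572 to 0.140, PRSS8 from -0.153 to -0.0296, SPINT2 from 0.0529 to 0.143 and TMPRSS2 from 0.0583 to 0.335. Of the 15 pairs of members, 10 passed over 12 arrays, 5 within the FoxA1 arrays and 0 within the GFP arrays. Without the 2 arrays farthest from the median 5 passed, and without FoxA1 3, FoxA1 4 and GFP 3 there were 2. Fewer arrays enter each of these tests than enter those over 12 arrays, and pairs of other genes were not counted for comparison. Same-numbered arrays of the groups had residual correlations from -0.283 to 0.686, over 0.1 in 5 of 6 pairs, and 4 of 12 arrays were closest to their own number. The labels name no pairing, so the numbers were not treated as pairs in the main fit, and whether same-numbered arrays share a source is not known here. If they do, the intervals and p-values of the main fit leave that out. With the replicate block the standard error was 0.119 for TMPRSS2, against 0.219 without it, 0.119 for HPN, against 0.202, and 0.108 for ST14, against 0.181. With that block 0 probes passed and 659 genes lay under an unadjusted p of 0.05, against 508 without the block. Median centring, a filter and variance moderation changed no call. Signal over background limits the dimmest HPN probe, whose difference says little about the transcript.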
